A study of Sus scrofa with 10 samples.

Results

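A set of 48 named genes for DNA replication and the supply of nucleotides for it was followed in pig liver (Sus scrofa) across 5 groups of a liver failure study. A gene belonged to the set when its deposited gene name was on the list, and 42 of the 48 names were found in this way among the 31905 rows of the table, each in a single row. The names CDT1, POLA2, PRIM1 and CCNE1 were reached only through the gene identifier, and the values of these 4 genes are given apart from the 42. RRM2 and POLE2 were not analysed here, since no row could be tied to either name without doubt. By role the 42 genes comprised 10 of origin licensing and the helicase core, 5 of helicase activation, 6 of the sliding clamp and its loader and 4 polymerase subunits. A further 4 act on the lagging strand or bind single-stranded DNA, 5 in deoxynucleotide supply, 4 in chromatin copying, 2 in S phase entry and 2 at the fork.

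The study concerned liver failure after hepatectomy and its treatment with a bioartificial liver, in which blood runs outside the body through a device that can hold liver cells. All samples were labelled wild type (WT), and total RNA of the liver was sequenced in 10 libraries. Control was normal liver on day 0 (3 libraries) and NoBAL was liver failure with no device on day 2 (2 libraries). EmptyBAL was liver failure treated on the same kind of device without cells, sampled on day 3 (2 libraries). The hiHep device held human induced hepatocytes, hepatocyte-like cells made from another human cell type, and was sampled on day 4 (hiHepD4, 1 library) and day 8 (hiHepD8, 2 libraries). Each group had its own day, so day and treatment cannot be told apart. Nothing in the labels shows that the libraries of a group are separate animals, so the p-values rest on a spread between libraries that may be technical.

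Before S phase, the origin recognition complex, CDC6 and CDT1 load the ring of MCM2 to MCM7 onto DNA, and CDC45 and the GINS complex then turn that ring into an active helicase. Polymerases copy the strands while held by the clamp PCNA, which the RFC complex loads, and thymidine kinase, thymidylate synthase, dUTPase and ribonucleotide reductase keep the building blocks supplied. Most of these genes are transcribed through E2F factors as cells leave rest. The normal adult liver divides little, and hepatocytes are known to enter S phase after part of the liver is removed.

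Values are FPKM, the fragments of a gene per kilobase of its length, scaled to all fragments of the library, and tests used limma on log2(FPKM + 1). Every log2 change below is on that scale, with its standard error where one follows it, and the scale makes changes of genes at low FPKM look smaller than they are. A gene was called when its p-value from limma, adjusted over all 12180 genes tested by Benjamini-Hochberg, was under 0.05. Genes at 1 FPKM or more in 2 or more libraries were tested, and all 42 were among them. Of the 42, 13 had no Control or hiHepD8 library at 1 FPKM and MCM2 had only 1. These genes thus entered through the other groups. The Control libraries and the hiHepD8 libraries matched closely within their group, with a median absolute difference over the 42 genes of 0.11 to 0.12 and 0.08 on the log2 scale, against 0.36 for NoBAL and 0.35 for EmptyBAL. The EmptyBAL libraries differed most from each other: 29.3% of the genes whose mean was 10 FPKM or more differed at least 2-fold between the EmptyBAL libraries, against 12.6% between the NoBAL libraries and 0.202% between those of hiHepD8. Since the number of fragments per library is unknown, no counting intervals are given.

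Replication genes were low in normal liver, high in both liver failure groups without cells in a device, intermediate on day 4 of the hiHep device and low on day 8. The summed level of the 42 genes was 203, 198 and 198 FPKM in Control, 1603 and 1467 in NoBAL, 974 and 953 with EmptyBAL, 569.6 with hiHepD4, and 173 and 165 with hiHepD8. The median level over the 42 genes was 1.33 to 1.66 FPKM in Control, 14.5 and 21.4 in NoBAL, 11.0 and 10.7 with EmptyBAL, 5.94 with hiHepD4, and 1.60 and 1.54 with hiHepD8. By group means NoBAL was the highest group for 37 genes, EmptyBAL for 4 (CDC45, GINS3, GINS4 and E2F1) and hiHepD8 for 1 (CCNE2).

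**Figure D1:**
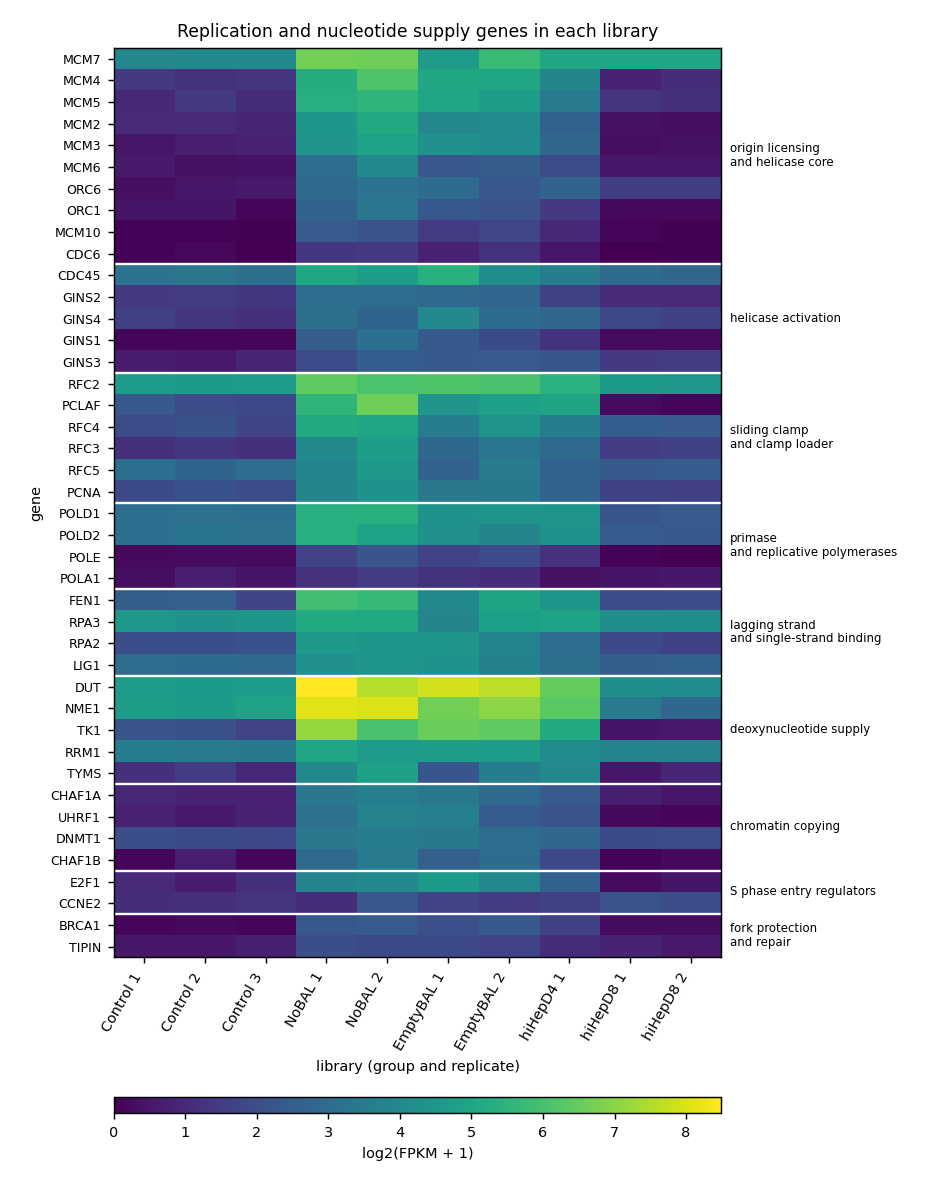
Level of each of the 42 genes (rows, grouped by role) in each of the 10 libraries (columns), as log2(FPKM + 1) on the colour scale. The NoBAL and EmptyBAL columns are brighter than those of Control for nearly every gene, hiHepD4 lies between, and the hiHepD8 columns are dark except for genes such as MCM7 and RFC2.

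NoBAL was compared with Control to find what accompanies liver failure after hepatectomy. In NoBAL 40 of the 42 genes rose and 0 fell by limma, while among all genes tested 25.2% rose and 24.2% fell. At an unadjusted p under 0.05, 41 genes were higher and 0 lower. The median log2 change over the set was 2.52, against 0.04 over all genes, and the changes ran from 0.52 to 4.57. Both NoBAL libraries lay above all Control libraries for 41 of the 42 genes, where 38.2% of all genes tested did. Both EmptyBAL libraries lay above all Control libraries for 40, where 34.2% of all genes did. Separation of single genes from Control, given below, is thus common over all genes. Of the 29 genes with at least 1 Control or hiHepD8 library at 1 FPKM, 27 rose. The other 13 passed the filter on low values only through groups in which they were high, so that they had to differ and their calls are no support. These were MCM3, MCM6, MCM10, ORC1, CDC6, GINS1, POLA1, POLE, CHAF1A, CHAF1B, UHRF1, TIPIN and BRCA1. MCM2, with only 1 Control library at 1 FPKM (1.05), also needed the other groups to pass. Its calls are no support either, though the 29 include it here and below. The p-values of all these genes and their separation from Control below are description only, also where they are counted within a role or under another setting. Of them ORC1, MCM2, MCM3, MCM6, MCM10, GINS1, CHAF1A, CHAF1B and BRCA1 are among the 18 calls of the setting given next. With the Control libraries averaged to 1 sample and the hiHepD8 libraries likewise, 18 genes were called, as were 3.39% of all genes.

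MCM2 to MCM5 were among the 6 largest changes of the set. MCM2, a subunit of the helicase ring, was at 0.998, 1.05 and 0.851 FPKM in Control, 21.4 and 33.6 in NoBAL, 14.3 and 16.5 with EmptyBAL, 5.15 with hiHepD4, and 0.308 and 0.250 with hiHepD8. MCM3 was at 0.440, 0.649 and 0.746 FPKM in Control, 20.4 and 29.1 in NoBAL, 18.5 and 16.7 with EmptyBAL, 5.95 with hiHepD4, and 0.258 and 0.299 with hiHepD8. MCM4 was at 1.69, 1.36 and 1.50 FPKM in Control, 37.4 and 70.4 in NoBAL, 32.0 and 31.9 with EmptyBAL, 13.6 with hiHepD4, and 0.762 and 1.17 with hiHepD8. For these 3 subunits every NoBAL and EmptyBAL library lay above every Control library, hiHepD4 was in between, and the hiHepD8 libraries lay below those of Control. Over all genes tested, 41.3% had both hiHepD8 libraries below all Control libraries. MCM5 was at 0.963, 1.75 and 1.13 FPKM in Control, 38.6 and 46.0 in NoBAL, 31.3 and 25.9 with EmptyBAL, 9.96 with hiHepD4, and 1.47 and 1.23 with hiHepD8. MCM6, the lowest subunit of the ring in NoBAL, was at 0.523, 0.311 and 0.344 FPKM in Control, 7.14 and 14.8 in NoBAL, 3.97 and 4.70 with EmptyBAL, 2.80 with hiHepD4, and 0.439 and 0.424 with hiHepD8. All 5 rose in NoBAL, with log2 changes of 3.83 ± 0.20 for MCM2, 3.98 ± 0.18 for MCM3, 4.38 ± 0.25 for MCM4, 4.26 ± 0.19 for MCM5 and 3.03 ± 0.26 for MCM6 (limma adjusted p = 5.6e-06 to 8.8e-05). As ratios of means, MCM4 was 35.5-fold and MCM2 28.5-fold higher than in Control.

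MCM7, the remaining ring subunit, was the most abundant of the 6 in 9 of the 10 libraries. It was at 14.7, 15.8 and 15.7 FPKM in Control, 103 and 96.1 in NoBAL, 24.3 and 52.7 with EmptyBAL, 31.0 with hiHepD4, and 31.1 and 30.8 with hiHepD8. Already in normal liver it was 15.1 to 18.5 times the median of the other 5 subunits, a comparison per length since FPKM is scaled to gene length. That ratio was 4.80 and 2.86 in NoBAL, 1.32 and 3.16 with EmptyBAL, 5.22 with hiHepD4, and 70.8 and 72.8 with hiHepD8. MCM7 rose in NoBAL by 2.61 ± 0.29 (limma adjusted p = 2.8e-04), less than each of the other subunits on the log2 scale, where it started from a higher level. In the RefSeq annotation of Sscrofa11.1 MCM7 lies on chromosome 3 at 8005890 to 8014047 and overlaps AP4M1, which codes for an adaptor protein subunit. AP4M1 was at 7.79, 7.50 and 6.42 FPKM in Control, 5.34 and 3.93 in NoBAL, 10.9 and 8.26 with EmptyBAL, 9.01 with hiHepD4, and 8.61 and 9.83 with hiHepD8. AP4M1 thus never reached the level of MCM7, although reads of overlapping genes cannot be told apart where strand is unknown.

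**Figure D2:**
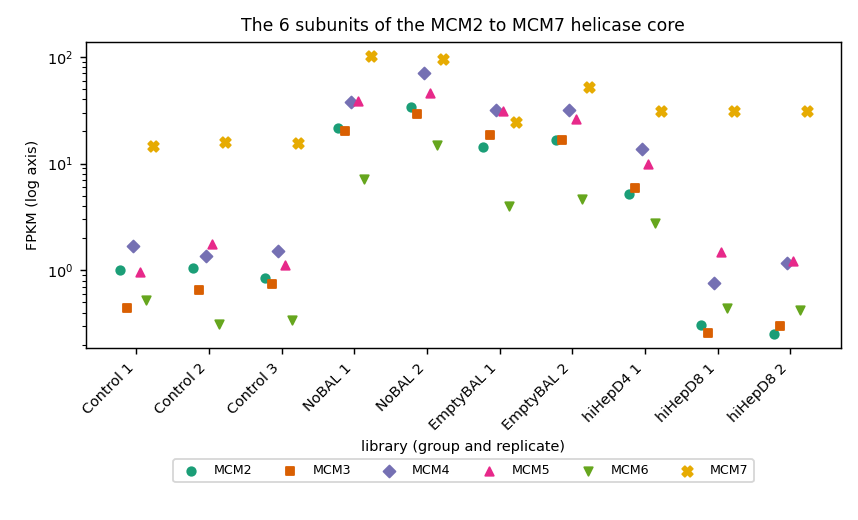
FPKM (log axis) of the 6 subunits of the MCM2 to MCM7 ring in each library. MCM7 sits at 14.7 to 15.8 FPKM in Control while the other subunits are at 0.311 to 1.75, the subunits draw together in NoBAL and EmptyBAL, and in hiHepD8 MCM7 is at 31.1 and 30.8 while the others lie at 1.47 or below.

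The rest of the licensing genes were nearly silent in normal liver. ORC1, a subunit of the origin recognition complex, was at 0.405, 0.384 and 0.116 FPKM in Control, 5.56 and 9.18 in NoBAL, 4.11 and 3.57 with EmptyBAL, 1.69 with hiHepD4, and 0.123 and 0.133 with hiHepD8. ORC6, another subunit, was at 0.272, 0.412 and 0.488 FPKM in Control, 6.41 and 8.49 in NoBAL, 6.75 and 3.97 with EmptyBAL, 5.37 with hiHepD4, and 1.97 and 1.98 with hiHepD8. MCM10, which helps start the helicase, was at 0.0508, 0.0678 and 0.0261 FPKM in Control, 4.39 and 3.55 in NoBAL, 1.78 and 2.50 with EmptyBAL, 0.977 with hiHepD4, and 0.0822 and 0.0369 with hiHepD8. All 3 were higher in every NoBAL and EmptyBAL library than in any Control library, and ORC6 was the only one of them with both hiHepD8 libraries above all Control libraries. They rose in NoBAL by 2.66 ± 0.20, 2.60 ± 0.21 and 2.24 ± 0.14 (limma adjusted p = 5.8e-05, 7.3e-05 and 2.5e-05). CDC6, which loads the ring, rose as well but reached only 1.68 FPKM in its highest library. CDT1, its partner, outside the 42 and matched by identifier, was at 0.341, 0.552 and 0.624 FPKM in Control, 24.2 and 18.4 in NoBAL, 22.5 and 17.0 with EmptyBAL, 6.87 with hiHepD4, and 0 and 0.0994 with hiHepD8.

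All 5 helicase activation genes rose in NoBAL (log2 changes 1.54 to 2.67, limma adjusted p = 5.5e-05 to 0.0039). GINS1 was at 0.0871, 0.0851 and 0.115 FPKM in Control, 4.65 and 7.60 in NoBAL, 4.30 and 2.77 with EmptyBAL, 1.38 with hiHepD4, and 0.183 and 0.184 with hiHepD8. GINS2 was at 1.71, 1.86 and 1.62 FPKM in Control, 7.29 and 7.20 in NoBAL, 6.51 and 5.82 with EmptyBAL, 2.19 with hiHepD4, and 1.01 and 1.03 with hiHepD8. GINS3 was at 0.575, 0.489 and 0.898 FPKM in Control, 2.91 and 4.83 in NoBAL, 4.25 and 4.47 with EmptyBAL, 3.78 with hiHepD4, and 1.72 and 1.84 with hiHepD8. These are subunits of the GINS complex, and in each the NoBAL and EmptyBAL libraries lay above all Control libraries, with GINS2 the most even between replicates. CDC45, which joins GINS and the ring in the active helicase, was at 8.35, 9.23 and 7.71 FPKM in Control, 33.3 and 25.2 in NoBAL, 41.3 and 17.7 with EmptyBAL, 11.0 with hiHepD4, and 6.77 and 6.01 with hiHepD8. CDC45 had a higher level in Control than any GINS gene and its highest library was EmptyBAL replicate 1. The rise in NoBAL was 2.67 ± 0.21 for GINS1, 1.60 ± 0.12 for GINS2, 1.54 ± 0.19 for GINS3 and 1.67 ± 0.32 for CDC45.

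The clamp genes rose in NoBAL, 6 of 6 (log2 changes 1.24 to 4.04, limma adjusted p = 4.7e-05 to 0.012). PCNA, the clamp itself, was at 2.76, 3.37 and 3.02 FPKM in Control, 13.6 and 19.2 in NoBAL, 9.45 and 9.83 with EmptyBAL, 5.48 with hiHepD4, and 2.09 and 2.03 with hiHepD8. PCLAF, a small protein that binds PCNA, was at 4.14, 2.80 and 2.56 FPKM in Control, 45.8 and 96.3 in NoBAL, 20.4 and 26.7 with EmptyBAL, 30.1 with hiHepD4, and 0.177 and 0.0899 with hiHepD8. PCLAF had a wide span: the NoBAL libraries were 22.4-fold above Control by ratio of means, and the hiHepD8 libraries were far below those of Control. The log2 changes in NoBAL were 2.08 ± 0.17 for PCNA and 4.04 ± 0.32 for PCLAF.

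The clamp loader subunits were uneven. RFC3 was at 1.28, 1.52 and 1.26 FPKM in Control, 15.5 and 26.0 in NoBAL, 6.36 and 9.05 with EmptyBAL, 6.67 with hiHepD4, and 1.88 and 2.18 with hiHepD8. RFC4 was at 2.93, 3.28 and 2.39 FPKM in Control, 35.2 and 31.0 in NoBAL, 10.8 and 20.0 with EmptyBAL, 11.0 with hiHepD4, and 4.79 and 4.37 with hiHepD8. RFC5 was at 7.63, 5.70 and 7.26 FPKM in Control, 13.1 and 23.3 in NoBAL, 5.35 and 10.5 with EmptyBAL, 5.15 with hiHepD4, and 4.27 and 4.60 with hiHepD8. RFC3 and RFC4 were higher in all NoBAL and EmptyBAL libraries than in Control, while RFC5 in EmptyBAL replicate 1 lay below every Control library. RFC2, the most abundant subunit, ranged from 22.3 FPKM in hiHepD8 to 85.3 in NoBAL. In NoBAL the log2 changes were 3.17 ± 0.23, 3.14 ± 0.25 and 1.24 ± 0.31 for RFC3, RFC4 and RFC5. In the annotation RFC4 overlaps EIF4A2, which fell in NoBAL from 191 to 199 FPKM in Control to 67.9 and 49.4, and RFC5 overlaps WSB2.

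Each of the 4 polymerase subunits rose in NoBAL. POLD1, the catalytic subunit of polymerase delta, was at 7.65, 8.19 and 7.61 FPKM in Control, 39.0 and 41.1 in NoBAL, 19.2 and 20.6 with EmptyBAL, 20.0 with hiHepD4, and 3.85 and 4.44 with hiHepD8. POLD2, a partner subunit, was at 7.54, 8.88 and 8.18 FPKM in Control, 40.0 and 29.6 in NoBAL, 18.8 and 13.5 with EmptyBAL, 19.7 with hiHepD4, and 4.51 and 4.16 with hiHepD8. POLE, the catalytic subunit of polymerase epsilon, was at 0.157, 0.217 and 0.180 FPKM in Control, 2.26 and 3.70 in NoBAL, 2.28 and 2.95 with EmptyBAL, 1.31 with hiHepD4, and 0.0481 and 0.0120 with hiHepD8. POLD1 and POLD2 were above Control in every NoBAL and EmptyBAL library and below it in both hiHepD8 libraries, whereas POLE stayed under 4 FPKM. Their log2 changes in NoBAL were 2.22 ± 0.14, 1.95 ± 0.20 and 1.73 ± 0.17 (limma adjusted p = 2.2e-05, 1.9e-04 and 1.8e-04). POLA1, the catalytic subunit of polymerase alpha, rose least of the 4 (log2 change 0.85 ± 0.16). Outside the 42, POLA2, another subunit of polymerase alpha, had means of 2.30 ± 0.143 FPKM (SD, n = 3) in Control, 24.3 ± 3.69 (n = 2) in NoBAL, 21.2 ± 5.17 (n = 2) with EmptyBAL and 3.58 ± 0.0263 (n = 2) with hiHepD8, and the primase gene PRIM1 had means of 0.840 ± 0.240 FPKM (SD, n = 3) in Control, 9.50 ± 3.42 (n = 2) in NoBAL, 3.91 ± 1.83 (n = 2) with EmptyBAL and 0.765 ± 0.0688 (n = 2) with hiHepD8.

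On the lagging strand 3 of 4 genes rose in NoBAL. FEN1, the flap endonuclease that trims Okazaki fragments, was at 4.88, 5.07 and 2.46 FPKM in Control, 57.8 and 50.3 in NoBAL, 15.3 and 30.4 with EmptyBAL, 21.5 with hiHepD4, and 2.89 and 3.05 with hiHepD8. LIG1, the ligase that joins them, was at 7.23, 6.93 and 6.55 FPKM in Control, 18.6 and 21.5 in NoBAL, 19.4 and 12.3 with EmptyBAL, 7.77 with hiHepD4, and 4.91 and 5.19 with hiHepD8. RPA2, a subunit of the single-strand binding protein RPA, was at 3.09, 3.10 and 3.36 FPKM in Control, 22.5 and 21.3 in NoBAL, 21.1 and 13.1 with EmptyBAL, 7.14 with hiHepD4, and 2.69 and 2.19 with hiHepD8. NoBAL and EmptyBAL libraries of these genes were above all Control libraries, and the log2 changes in NoBAL were 3.46 ± 0.33, 1.41 ± 0.20 and 2.45 ± 0.20 (limma adjusted p = 1.5e-04, 8.2e-04 and 7.6e-05). RPA3, the small RPA subunit, was at 22.3, 19.6 and 21.4 FPKM in Control, 35.9 and 34.4 in NoBAL, 13.7 and 27.0 with EmptyBAL, 28.8 with hiHepD4, and 17.6 and 17.6 with hiHepD8. It was already high in Control, and although both NoBAL libraries lay above Control the log2 change of 0.71 ± 0.26 did not pass the test (limma adjusted p = 0.051).

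Deoxynucleotide supply included the largest change of the set. TK1, thymidine kinase, was at 3.75, 3.28 and 2.32 FPKM in Control, 141 and 65.4 in NoBAL, 93.1 and 84.3 with EmptyBAL, 35.7 with hiHepD4, and 0.404 and 0.511 with hiHepD8. TYMS, thymidylate synthase, was at 1.25, 1.77 and 0.987 FPKM in Control, 15.8 and 28.2 in NoBAL, 3.82 and 11.0 with EmptyBAL, 15.0 with hiHepD4, and 0.413 and 0.829 with hiHepD8. DUT, the dUTPase that keeps uracil out of DNA and provides the precursor of thymidylate, was at 24.5, 23.8 and 24.5 FPKM in Control, 359 and 184 in NoBAL, 239.7 and 200.2 with EmptyBAL, 89.3 with hiHepD4, and 17.9 and 16.6 with hiHepD8. TK1 and DUT were higher in NoBAL replicate 1 than in replicate 2 whereas TYMS was the other way round, and all NoBAL libraries lay above all Control libraries. NME1, a nucleoside diphosphate kinase, was at 25.9, 24.0 and 28.9 FPKM in Control, 273 and 264 in NoBAL, 101 and 127 with EmptyBAL, 78.2 with hiHepD4, and 10.6 and 6.30 with hiHepD8. The log2 changes in NoBAL were 4.57 ± 0.31 for TK1, 3.26 ± 0.40 for TYMS, 3.35 ± 0.27 for DUT and 3.31 ± 0.23 for NME1 (limma adjusted p = 3.5e-05 to 4.6e-04 over the 5 supply genes). RRM1, the large subunit of ribonucleotide reductase, rose by 1.34 ± 0.16 from 9.72 to 10.8 FPKM in Control to 31.2 and 24.3. TK1 lies on chromosome 12 at 3785997 to 3794824 and NME1 on the same chromosome at 27416308 to 27435044. NME2, a close paralog of NME1, was at 206, 198 and 208 FPKM in Control, 904 and 461 in NoBAL, and 146 and 147 in hiHepD8. The sources used here do not say how reads that fit both paralogs were shared, so the level of NME1 is uncertain.

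Genes that copy chromatin rose in NoBAL, 4 of 4 (log2 changes 1.55 to 2.88). CHAF1A, a subunit of the histone chaperone CAF-1, was at 0.913, 0.751 and 0.731 FPKM in Control, 9.46 and 11.3 in NoBAL, 9.68 and 6.43 with EmptyBAL, 4.37 with hiHepD4, and 0.681 and 0.412 with hiHepD8. CHAF1B, another subunit, was at 0.0901, 0.634 and 0.104 FPKM in Control, 6.72 and 9.96 in NoBAL, 5.04 and 6.98 with EmptyBAL, 2.65 with hiHepD4, and 0.0609 and 0.153 with hiHepD8. UHRF1, which brings the maintenance methyltransferase to new DNA, was at 0.727, 0.536 and 0.805 FPKM in Control, 7.91 and 12.7 in NoBAL, 11.3 and 4.51 with EmptyBAL, 3.64 with hiHepD4, and 0.154 and 0.111 with hiHepD8. All 3 were under 1 FPKM in each Control and hiHepD8 library and above 4 FPKM in each NoBAL and EmptyBAL library. They thus passed the filter only through groups in which they were high, and their rise is no support. DNMT1, the methyltransferase, had means of 2.84 ± 0.208 FPKM (SD, n = 3) in Control, 10.2 ± 1.20 (n = 2) in NoBAL, 8.45 ± 1.79 (n = 2) with EmptyBAL and 2.82 ± 0.0953 (n = 2) with hiHepD8, and it rose by 1.55 ± 0.16. The other log2 changes were 2.66 ± 0.19 for CHAF1A, 2.88 ± 0.24 for CHAF1B and 2.71 ± 0.33 for UHRF1.

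The S phase entry genes split. E2F1, a transcription factor that drives replication genes, was at 1.05, 0.588 and 1.21 FPKM in Control, 12.9 and 14.8 in NoBAL, 23.5 and 14.4 with EmptyBAL, 5.22 with hiHepD4, and 0.194 and 0.388 with hiHepD8. It rose in NoBAL by 2.94 ± 0.24 (limma adjusted p = 6.9e-05), and its highest library was EmptyBAL replicate 1. CCNE2, a cyclin that activates CDK2 at S phase entry, was at 1.15, 1.24 and 1.40 FPKM in Control, 1.12 and 4.00 in NoBAL, 2.34 and 1.79 with EmptyBAL, 2.12 with hiHepD4, and 3.51 and 2.99 with hiHepD8. NoBAL replicate 1 lay below every Control library of CCNE2 and replicate 2 above them all, and the log2 change of 0.52 ± 0.32 did not pass the test (limma adjusted p = 0.21). In the annotation CCNE2 overlaps INTS8, whose level lay between 1.97 and 2.65 FPKM in all 10 libraries. CCNE1, the other E-type cyclin, reached by identifier, had means of 0.147 ± 0.0990 FPKM (SD, n = 3) in Control, 2.09 ± 1.58 (n = 2) in NoBAL, 0.975 ± 0.185 (n = 2) with EmptyBAL and 0.261 ± 0.0112 (n = 2) with hiHepD8.

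At the fork, BRCA1, which protects stalled forks and repairs breaks, was at 0.117, 0.159 and 0.0986 FPKM in Control, 4.09 and 4.36 in NoBAL, 3.23 and 4.27 with EmptyBAL, 2.17 with hiHepD4, and 0.212 and 0.207 with hiHepD8. TIPIN, part of the fork protection complex, was at 0.453, 0.467 and 0.693 FPKM in Control, 3.08 and 2.71 in NoBAL, 2.79 and 2.25 with EmptyBAL, 1.14 with hiHepD4, and 0.798 and 0.510 with hiHepD8. Both were higher in every NoBAL and EmptyBAL library than in any Control library, with log2 changes in NoBAL of 2.22 ± 0.13 and 1.34 ± 0.15 (limma adjusted p = 1.9e-05 and 2.7e-04). Both passed the filter only through groups in which they were high, so these values are description and no support.

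**Figure D3:**
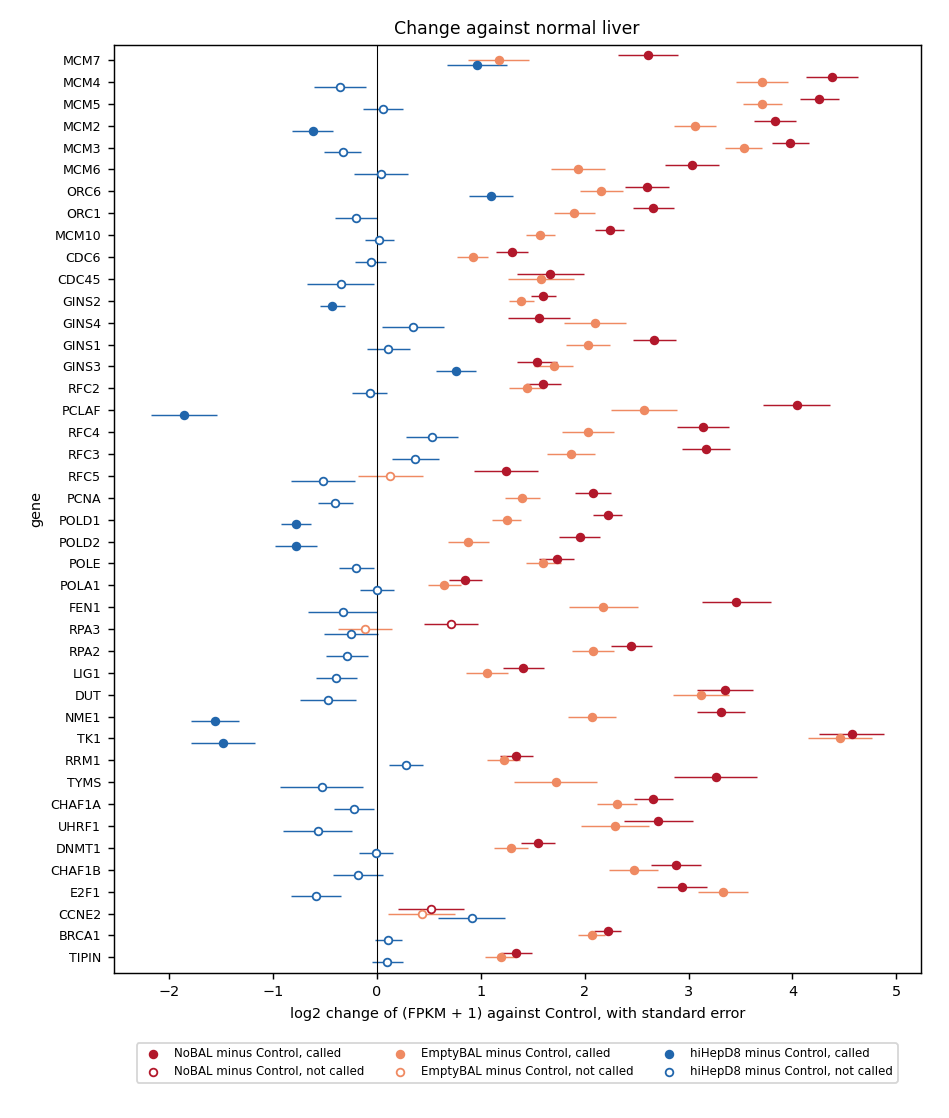
log2 change of (FPKM + 1) against Control for each gene, with limma's standard error, in NoBAL (red), EmptyBAL (orange) and hiHepD8 (blue), all set against the same 3 Control libraries. Filled points were called at an adjusted p under 0.05. The NoBAL changes run from 0.52 to 4.57, those of EmptyBAL from -0.12 to 4.46 and those of hiHepD8 from -1.86 to 1.10.

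EmptyBAL was compared with Control to see liver failure treated with a device without cells. In EmptyBAL 39 genes rose and 0 fell (39 and 0 at an unadjusted p under 0.05), against 24.4% of all genes higher and 29.3% lower by limma. The median log2 change over the 42 was 1.89, against -0.03 over all genes. Of the 29 genes with a Control or hiHepD8 library at 1 FPKM, 26 rose. The calls of the other 13 and of MCM2, which entered the test only through other groups, are no support here either. TK1 led again (4.46 ± 0.31), followed by MCM4 (3.71 ± 0.25), MCM5 (3.71 ± 0.19), MCM3 (3.53 ± 0.18) and E2F1 (3.33 ± 0.24), with limma adjusted p of 9.4e-06 to 3.6e-05. RFC5, RPA3 and CCNE2 were not called. Without EmptyBAL replicate 1 the median log2 change was 1.75 over the 42 and -0.05 over all genes. NoBAL and EmptyBAL were set against the same Control libraries. The 9 genes still called under the setting given next include MCM2, MCM3, CHAF1A, CHAF1B and BRCA1, whose calls are no support. Counting Control and hiHepD8 as 1 sample each left 9 of the 42 called and 5.66% of all genes.

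Between the groups without cells in a device, EmptyBAL was lower than NoBAL for 15 genes and higher for 0 (19 and 0 at an unadjusted p under 0.05), while 21.4% of all genes were lower and 12.6% higher by limma. The median log2 change over the 42 was -0.43, against -0.14 over all genes. The lower genes were MCM2, MCM6, MCM7, MCM10 and ORC1 of the licensing group, PCNA, PCLAF, RFC3, RFC4 and RFC5 of the clamp group, POLD1 and POLD2, FEN1, TYMS and NME1. Their log2 changes ran from -1.54 to -0.67 (limma adjusted p = 0.0048 to 0.039). POLD1 fell from 39.0 and 41.1 FPKM to 19.2 and 20.6, and NME1 from 273 and 264 to 101 and 127. No helicase activation, chromatin copying, S phase entry or fork gene was called. The calls depended on the scaling of the libraries. After upper-quartile scaling 6 of the 42 were called, against 28.6% of all genes. With the same summed FPKM for all libraries 0 of 42 were called, against 24.7% of all genes, and 5 had an unadjusted p under 0.05. With only the 4 libraries of these groups in the fit limma called 0 of all 12180 genes, so that its 0 of 42, 9 with an unadjusted p under 0.05, says nothing particular of the set. Without NoBAL replicate 2 the median log2 change was -0.34 over the 42 and -0.15 over all genes. Without EmptyBAL replicate 1 these medians were -0.66 and -0.17.

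On day 4 of the hiHep device, in a single library that allows no test, 39 of the 42 genes lay below both NoBAL libraries, where 38.7% of all genes tested did. Of the 42, 40 lay above all Control libraries, where 46.0% of all genes did, and 37 lay both below NoBAL and above Control, where 18.6% of all genes did. The median log2 difference of hiHepD4 was -1.27 from NoBAL, -0.67 from EmptyBAL, 1.33 from Control and 1.21 from hiHepD8. The genes differed in their level relative to the NoBAL mean, which came from other samples. MCM2 stood at 18.7% of its NoBAL mean, POLA1 at 19.2% and MCM3 to MCM6 at 23.6% to 25.5%, while TYMS stood at 68.0%, ORC6 at 72.0%, GINS4 at 88.8% and GINS3 at 97.6%. PCLAF, POLD2, RPA3 and TYMS were above both EmptyBAL libraries. RFC5 was below every Control library and POLA1 was within their range.

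On day 8 of the hiHep device the set was low. Against NoBAL 41 genes were lower and 0 higher (41 and 0 at an unadjusted p under 0.05), where 24.8% of all genes were lower and 22.5% higher by limma, and CCNE2 was the gene not called. The median log2 change over the 42 was -2.58, against -0.03 over all genes. Of the 29 genes with a Control or hiHepD8 library at 1 FPKM, 28 were lower. The other 13 and MCM2 needed groups outside Control and hiHepD8 to pass the filter, so their calls are no support. The largest changes were those of TK1 (-6.06 ± 0.34), PCLAF (-5.90 ± 0.35), NME1 (-4.87 ± 0.25), MCM4 (-4.74 ± 0.28) and MCM2 (-4.45 ± 0.21), with limma adjusted p of 2.0e-05 to 3.3e-05. As ratios of means PCLAF was 532-fold and TK1 225-fold lower than in NoBAL. The 15 genes still called under the setting given next include ORC1, MCM2, MCM3, MCM10, CHAF1A, CHAF1B and BRCA1, whose calls are no support. With Control and hiHepD8 counted as 1 sample each, 15 of the 42 were called and 2.44% of all genes.

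Against EmptyBAL 38 genes were lower on day 8 and 0 higher (38 and 0 at an unadjusted p under 0.05), where 17.6% of all genes were lower and 22.6% higher by limma. The median log2 change over the 42 was -1.86, against 0.05 over all genes. Of the 29 genes with a Control or hiHepD8 library at 1 FPKM, 25 were lower. The calls of the other 13 and of MCM2 are again no support. TK1 (-5.94 ± 0.34), PCLAF (-4.43 ± 0.35), MCM4 (-4.07 ± 0.28) and E2F1 (-3.91 ± 0.26) changed most. Without EmptyBAL replicate 1 the median log2 change was -1.87 over the 42 and 0.07 over all genes. In the full fit MCM7, RFC5, RPA3 and CCNE2 were not called, and for MCM7 the hiHepD8 libraries at 31.1 and 30.8 FPKM lay between the EmptyBAL libraries at 24.3 and 52.7. With Control and hiHepD8 counted as 1 sample each limma called 1 of the 42 and 0.271% of all genes, and 34 of the 42 had an unadjusted p under 0.05.

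hiHepD8 was also set against normal liver. Here 3 genes were higher and 7 lower (4 and 9 at an unadjusted p under 0.05), where 15.1% of all genes were higher and 17.1% lower by limma, so neither share exceeded that over all genes. The median log2 change was -0.21, against -0.02 over all genes, and with equal summed FPKM it turned to 0.09, against 0.42 over all genes. The genes that fell were PCLAF (-1.86 ± 0.32), NME1 (-1.56 ± 0.23), TK1 (-1.48 ± 0.31), POLD1 (-0.78 ± 0.14), POLD2 (-0.78 ± 0.20), MCM2 (-0.62 ± 0.20) and GINS2 (-0.43 ± 0.12), with limma adjusted p of 0.0019 to 0.045. Those that rose were ORC6 (1.10 ± 0.21), MCM7 (0.96 ± 0.29) and GINS3 (0.76 ± 0.19), with limma adjusted p of 0.0062, 0.037 and 0.021. By ratio of means PCLAF was 23.7-fold, TK1 6.82-fold, MCM2 3.46-fold and NME1 3.10-fold lower than in normal liver, and ORC6 was 5.05-fold, GINS3 2.72-fold and MCM7 2.01-fold higher. In all 10 genes the hiHepD8 libraries did not overlap those of Control, and over the 42 genes 21 were lower and 10 higher without overlap, as were 41.3% and 38.7% of all genes tested. AP4M1, which overlaps MCM7, had a log2 change of 0.31 that did not pass the test (limma adjusted p = 0.24). PCLAF, NME1, TK1, MCM7, ORC6 and GINS3 kept their call under both other scalings of the libraries. The split was 5 higher and 5 lower after upper-quartile scaling and 6 higher and 3 lower with equal summed FPKM. Over all genes 34.2% and 37.7% were called under these scalings. POLD1 and POLD2 lost it when libraries were given the same summed FPKM, and MCM2 and GINS2 lost it under both. With Control and hiHepD8 counted as 1 sample each limma called 0 of the 42 and 0.140% of all genes, 2 of the 42 having an unadjusted p under 0.05, and leaving out a single Control or hiHepD8 library left 2 to 6 called.

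**Figure D4:**
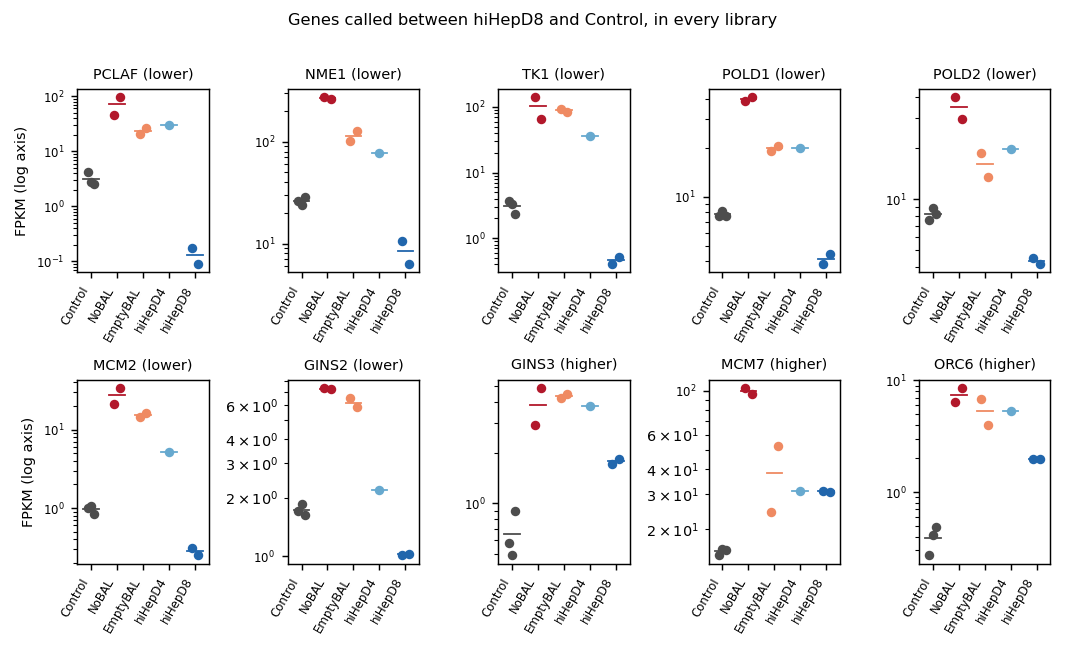
FPKM (log axes, which differ between panels) in every library for the 10 genes called between hiHepD8 and Control; points are libraries and short lines group means. PCLAF and TK1 are at 2.32 to 4.14 FPKM in Control and at 0.511 or below in hiHepD8, while ORC6, GINS3 and MCM7 lie above every Control library on day 8.

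Other genes of the same processes were counted from wider lists, which were drawn up with earlier results of these data known. Their counts in NoBAL stand beside the 25.2% of all genes that rose and the 24.2% that fell. The counts can include genes with fewer than 2 Control or hiHepD8 libraries at 1 FPKM, which needed the other groups to pass the filter. Calls of such genes are no support. Among further replication factors, 19 of 30 tested rose in NoBAL and 1 fell (median log2 change 0.90). The helicase RECQL4 (2.88 ± 0.22) and the topoisomerase TOP2A (2.41 ± 0.21) rose most, with limma adjusted p of 6.0e-05 and 1.0e-04. TOP2A was at 0.366 FPKM or below in Control and hiHepD8, and RECQL4 reached 1 FPKM there in only 1 Control library (1.01). Both thus passed the filter through groups in which they were high, and these values are description only. TIMELESS, the partner of TIPIN, was the gene that fell, from 21.6 to 24.7 FPKM in Control to 3.99 and 3.44 in NoBAL, and it stood at 15.8 and 17.1 in hiHepD8. Its log2 change in NoBAL was -2.36 ± 0.16 (limma adjusted p = 3.8e-05), and it was matched to its name only through its identifier, as were RECQL4 and PRPS1.

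Of 15 further genes for repair and checkpoints in S phase, 13 rose in NoBAL and 0 fell (median 1.05), among them RAD51AP1 (2.57 ± 0.30), XRCC2 (1.77 ± 0.25) and FANCD2 (1.74 ± 0.14). Of 20 E2F, RB and G1/S genes 12 rose and 2 fell (median 0.84), with the cyclin CCND1 (3.29 ± 0.28), the CDK inhibitor CDKN2C (2.97 ± 0.25) and the repressor E2F8 (2.15 ± 0.22) changing most. CCND1 was at 4.01 to 4.76 FPKM in Control, 56.9 and 47.4 in NoBAL, and 4.81 and 4.63 in hiHepD8.

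Of 19 genes of purine and pyrimidine synthesis 10 rose and 1 fell in NoBAL (median 0.81), led by the CTP synthase CTPS1 (3.98 ± 0.33), the ribose phosphate kinase PRPS1 (2.14 ± 0.24) and IMPDH1 (2.13 ± 0.52), which catalyses a step towards GTP. In EmptyBAL against Control 4 of the same 19 rose and 9 fell, where 24.4% of all genes rose and 29.3% fell. Of 14 genes of salvage and breakdown 5 rose and 2 fell in NoBAL (median 0.32). The genes that fell were XDH, which makes uric acid (-4.19 ± 0.40), and the uridine phosphorylase UPP2 (-2.82 ± 0.51), while its relative UPP1 rose (2.97 ± 0.65). UPP2 was at 46.9 to 51.6 FPKM in Control, 3.12 and 11.4 in NoBAL, and 145 and 144 in hiHepD8.

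The labels call the samples hepatocytes but name no step that isolates cells, so the libraries were read as liver tissue, in which fewer cells of a type and less RNA per cell cannot be told apart. All 8 hepatocyte markers were above 0 in every library. Their summed level was 72194 to 74384 FPKM in Control, 12377 and 13397 in NoBAL, 3537 and 6491 with EmptyBAL, 21472 with hiHepD4, and 20979.6 and 21056 with hiHepD8. Albumin (ALB), with a Control mean of 53929 FPKM and a hiHepD8 mean of 12992, made up most of that sum. Against Control 5 of the 8 were called lower in NoBAL, 8 in EmptyBAL and 3 in hiHepD8, where the urea cycle gene CPS1 had a mean of 562 FPKM against 301 in Control and the transcription factor HNF4A 118 against 109, neither called.

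Marker levels of other cells also differed between the groups. The 4 neutrophil markers found summed to 0.361 to 1.31 FPKM in Control, with S100A8 at 0 in all 3 libraries, 26.3 to 233 in NoBAL, 100.5 to 626 in EmptyBAL, 66.0 in hiHepD4 and 0.768 to 1.02 in hiHepD8. This sum was low in Control and hiHepD8, and in hiHepD4 it lay between the NoBAL libraries. The 8 macrophage markers summed to 419 to 452 in Control, 118 to 122 in NoBAL, 754 to 1073 in EmptyBAL, 235 in hiHepD4 and 385 to 386 in hiHepD8. The complement genes C1QA, C1QB and C1QC carried most of the sum in Control (C1QB mean 145 FPKM, and 26.6 in NoBAL). In NoBAL these and CSF1R were called lower, 4 of 8, while CD68, CD163, MARCO and VSIG4 were not called. The 6 markers of T and NK cells summed to 16.0 to 18.8 FPKM in Control, 6.59 to 8.65 in NoBAL, 39.3 to 66.2 in EmptyBAL, 14.0 in hiHepD4 and 18.4 to 18.7 in hiHepD8, and 4 of the 5 tested were called lower in NoBAL.

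Endothelial markers summed to 44.1 to 46.1 FPKM in Control, 67.6 to 109 in NoBAL, 48.6 to 144 in EmptyBAL, 42.3 in hiHepD4 and 102 to 103 in hiHepD8. Those of stellate cells and fibroblasts summed to 277 to 311 FPKM in Control, 567 to 805 in NoBAL, 449 to 678 in EmptyBAL, 128 in hiHepD4 and 439 to 442 in hiHepD8. Cholangiocyte markers summed to 11.7 to 12.7 FPKM in Control, 17.4 to 28.3 in NoBAL, 95.5 to 118 in EmptyBAL, 15.9 in hiHepD4 and 25.9 to 27.2 in hiHepD8. In hiHepD8 these 3 sums were above those of every Control library. B and plasma cell markers lay between 30.2 and 64.6 FPKM in all libraries and red cell markers between 4.49 and 293. The part of these cells in the levels of the replication genes was not tested.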

How the data were processed

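The authors deposited 1 table of FPKM for 31905 genes in 10 pig liver libraries; per the labels' protocols, Trizol extracts were made into TruSeq libraries and read from both ends on a HiSeq instrument. The builds Sscrofa11.1 and mm10 and the tools HTSeq, Cufflinks and HISAT2 are listed, with no role, in the submitters' processing notes; strand use and the sharing of reads between paralogs are not given there. The file header does not name the unit, which was taken from the table's layout and values. FPKM are scaled within a library, so abundant genes lower the others. Summed FPKM ran from 439925 to 829970 per library. Whole fragments could not be recovered: the commonest ratio between low values held for 85 of 1839 genes in a Control pair and 97 of 2233 in the hiHepD8 pair, so depth is unknown.

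The 12180 genes that reached 1 FPKM in 2 or more libraries were tested as log2(FPKM + 1) with limma 3.58.1 in R 4.3.3. A single fit held all 10 libraries with a mean per group and a mean-variance trend, leaving 5 residual and 2.7 prior degrees of freedom. Tests were two-sided with Benjamini-Hochberg adjustment over all genes of a comparison, and the script was tested on simulated data. hiHepD4, 1 library, entered the fit but was not tested. The alternatives were another pseudocount, filter, scaling or trend, a fit of only the groups compared, groups counted once, libraries left out and a replicate block. Values in every library are given for the 3 genes per role with the largest change in NoBAL, for genes not called there, and for those called in EmptyBAL against NoBAL or in hiHepD8 against Control. Of each wider list the 3 called genes with the largest change in NoBAL are named. The members, lists and rules were chosen with earlier results of these data known. Positions are those of RefSeq on Sscrofa11.1, matched by symbol. Plots were drawn with matplotlib 3.10.9 and summaries with pandas 2.3.3 (Python 3.11.15).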

Additional observations from a re-analysis of the deposited data

How the results depend on the processing

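Counts of the 42 genes called are given for NoBAL, EmptyBAL and hiHepD8 against Control (40, 39 and 10), hiHepD8 against NoBAL and EmptyBAL (41 and 38), and EmptyBAL against NoBAL (15). Under each setting the counts can include genes named above whose calls are no support. With Control and hiHepD8 counted as 1 sample each they were 18, 9, 0, 15, 1 and 0, of which 39, 34, 2, 37, 34 and 11 had an unadjusted p under 0.05, while 3.39%, 5.66%, 0.140%, 2.44%, 0.271% and 0% of all genes were called. Requiring a mean of at least 5 FPKM left 26 of the genes to test, of which 26, 24, 6, 26, 23 and 13 were called. Over all genes 54.1%, 56.9%, 30.2%, 49.8%, 43.0% and 37.9% were called there. EmptyBAL against NoBAL gave 9 without a filter and 6 after upper-quartile scaling, where 16.3% and 28.6% of all genes were called. It gave 0 with equal summed FPKM (24.7% of all genes), with only the 2 groups in the fit (0%) and with the replicate block (3.34%). In that order 5, 9 and 15 of the 42 had an unadjusted p under 0.05. hiHepD8 against Control gave 26 with only those 2 groups in the fit, where 68.8% of all genes were called. Leaving out 1 library gave medians over the 42 of 2.36 to 2.52, 1.69 to 1.91 and -0.25 to -0.18 for NoBAL, EmptyBAL and hiHepD8 against Control. They were -2.61 to -2.40 and -1.87 to -1.84 for hiHepD8 against NoBAL and EmptyBAL, and -0.67 to -0.34 for EmptyBAL against NoBAL. Over all genes the medians of these fits lay between -0.17 and 0.07. The log2 change of CCNE2 in NoBAL turned to -0.09 without NoBAL replicate 2 and was 1.14 without replicate 1. RPA3, with the lowest EmptyBAL change against Control (-0.12), also turned sign under both other scalings of the libraries and without EmptyBAL replicate 1. The remaining library, at 27.0 FPKM, lay above all Control libraries. No other change printed beside a gene name turned sign under any setting run.

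With equal summed FPKM the median log2 change over all genes went from 0.04 to 0.30 in NoBAL against Control. It went from -0.03 to 0.60 in EmptyBAL and from -0.02 to 0.42 in hiHepD8 against Control. In hiHepD8 it went from -0.03 to 0.12 against NoBAL and from 0.05 to -0.15 against EmptyBAL. In EmptyBAL against NoBAL it went from -0.14 to 0.20. The share of higher among all genes called went from 37.0% to 84.4% there and from 46.9% to 78.8% in hiHepD8 against Control. Nothing in the labels says that replicate numbers pair the libraries. Deviations of same-numbered NoBAL and EmptyBAL libraries from their group means had r = 0.137, and those of Control with NoBAL -0.028 and -0.049. With 2 libraries in NoBAL and in EmptyBAL, each r rests on 1 difference within such a group. It cannot show whether same-numbered libraries share an animal, day or batch. With the block NoBAL and EmptyBAL against Control gave 39 and 35 calls, where 24.7% and 30.7% of all genes were called. The cause of these differences was not tested, and unknown depth limits how low values can be read.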
